A study of Homo sapiens with 24 samples.

Results

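YAP-TFE3 expressing SW872 cells were compared with empty vector cells, both harvested 48 h after reaching confluence, and the account follows the pathways and gene classes that differed between them. The comparison took 6 of the 24 libraries of the series, 3 of YAP-TFE3 and 3 of empty vector (EV). Of the 60279 genes in each count table, 20296 had a mean of at least 5 counts over those 6 libraries and were tested. SW872 is an established human liposarcoma cell line, and all groups were made from it by retroviral transduction with a pBabeNeo vector followed by selection with G418, so the EV cells carried the same vector and the same drug resistance. Each line was a selected pool of transduced cells rather than a clone, and YAP-TFE3 carried a double Flag tag and was driven from the retroviral vector rather than from its own locus. YAP5SA, a YAP form that the Hippo kinases cannot inactivate, and full-length TFE3, both also confluent, are used below where a difference between constructs is tested. The other groups of the series were confluent TAZ4SA and TAZ-CAMTA1 cells, and CAMTA1 cells and further empty vector cells that were both collected below confluence.

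YAP-TFE3 is the gene fusion that defines a minor subset of epithelioid haemangioendothelioma, a vascular sarcoma. In crowded cells the kinases of the Hippo pathway hold YAP and its paralogue TAZ in the cytoplasm, and in sparse cells both enter the nucleus and switch on genes bound by TEAD factors. TFE3 belongs to the MiT family of basic helix-loop-helix factors, with TFEB, TFEC and MITF, which bind E-box and M-box sequences and are known for the control of lysosome, autophagy and pigment cell genes. The host line comes from an adipose tumour and not from a vascular or pigment cell tumour, although it expressed endothelial genes, as given below.

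The YAP-TFE3 libraries held 30331854 to 35287476 counts and the EV libraries 19700277 to 26984451. TFE3 reads, which include those from the fusion transcript, stood at 292, 321 and 226 counts per 1000000 counts of the library (CPM, with TMM-scaled library sizes) in YAP-TFE3 and at 110 to 128 CPM in EV. YAP1 reads stood at 133 to 163 CPM and 115 to 142 CPM, a difference that did not pass the test (0.24, adjusted p = 0.051) but did without EV replicate 1 (0.32, adjusted p = 0.019) or YAP-TFE3 replicate 3 (0.32, adjusted p = 0.012) and, at adjusted p values of 0.034 to 0.049, under DESeq2, RLE size factors, thinned counts and filters of 50 counts or over all 24 libraries. The 7 mesenchymal markers had a summed level of 4120 to 5571 CPM in YAP-TFE3 and 4885 to 5697 CPM in EV. Most of it came from FN1, with means of 4015 and 4149 CPM, which did not pass the test. Of the 7 markers 1 rose and 4 fell. The immune list of 6 markers summed to 1.77 to 2.32 CPM in YAP-TFE3 and to 2.20 to 3.03 CPM in EV. The 10 endothelial markers summed to 259 to 303 CPM in YAP-TFE3 and to 345 to 412 CPM in EV, and 1 rose and 6 fell. YAP-TFE3 replicate 3 stood apart from replicates 1 and 2: the chi-square per degree of freedom between gene counts was 65.1 and 51.4 for the pairs that included it, against 10.2 for the pair without it and 6.36 to 11.5 for the EV pairs. For some lists the counts are therefore also given without that library. Counts of other lists can shift without it too, since 8990 of the 9950 genes called below remained called when it was left out.

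Of the 20296 genes, 9950 differed between YAP-TFE3 and EV at an adjusted p under 0.05, which is 49.0% of those tested. The 5242 higher genes were 25.8% of those tested and the 4708 lower genes 23.2%. The directions differed in size: 2337 of the higher genes, or 44.6%, were at least 2-fold up, against 1205 of the lower genes, or 25.6%, that were at least 2-fold down. At least 8-fold changes were found for 483 higher and 16 lower genes. The 3 libraries of one group lay entirely above the 3 of the other for 10485 genes, or 51.7%. With 49.0% of all genes called, a list is described below by its counts and, for many lists, by its median log2 fold change. The median over all genes tested was −0.01. Of the 14806 protein coding genes tested, 54.5% were called, 29.2% as higher and 25.4% as lower, with a median of 0.01. Lists of protein coding genes are to be read against these shares. Contractile (56.7%), glycolysis (57.1%), growth factor ligand (58.8%) and Hippo (59.4%) genes, among others, were called at shares near 54.5%.

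The 15 higher genes with the largest fold changes started from low levels in EV. CRYAB, the small heat shock protein αB-crystallin of lens and muscle, on chromosome 11, was measured at 1135, 1283 and 2093 CPM in the YAP-TFE3 libraries and at 4.64, 5.27 and 3.37 CPM in the EV libraries. This was a log2 fold change of 8.39 ± 0.28 (SE, adjusted p = 5.3e-17). LCP1, the actin-bundling L-plastin of white blood cells, had a mean of 196 CPM in YAP-TFE3 and rose from under 2 CPM in each EV library.

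Some of the leading increases were in genes known from blood cells. Of the 9 tested members of the list of immune cell genes, 1 rose and 2 fell, with a median of −0.13. CD3D and CD3E, subunits of the T cell receptor complex, fell by 3.08 ± 0.49 and 1.20 ± 0.44 from under 1 CPM in each EV library, the call of CD3E being lost without EV replicate 3 (−1.09, adjusted p = 0.075) or YAP-TFE3 replicate 1 (−0.83, adjusted p = 0.13) and with thinned counts (−0.87, adjusted p = 0.13). The leukocyte marker PTPRC held 0 or 1 count in every one of the 6 libraries. SLAMF7, a surface receptor of natural killer and plasma cells, was sequenced in 2 or 3 counts per EV library and stood at a ratio of 360 to EV (95% counting interval 183 to 835). TAGAP, a RhoGAP of activated T cells, had 0 counts in all EV libraries and was at least 92.2-fold higher in YAP-TFE3, taking 3 counts per library as the limit that a count of 0 allows. DHRS9, a retinol dehydrogenase, likewise had 0 counts in EV and was at least 58.3-fold higher. These intervals cover counting error only.

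The leading increases also held a channel, receptors and enzymes. TRPC7, a calcium-permeable channel, was at 45.1, 41.5 and 33.2 CPM in YAP-TFE3 and at 0.140, 0.152 and 0.0962 CPM in EV, with a log2 fold change of 8.20 ± 0.27 (adjusted p = 3.5e-17). NR1H4, the bile acid receptor FXR, had a mean of 27.2 CPM in YAP-TFE3, and CMKLR2, a receptor for chemerin, a mean of 24.8 CPM. AP1M2, an adaptor subunit of epithelial cells, stood at a ratio of 190 (74.1 to 700), NMRK2, a nicotinamide riboside kinase of muscle, at 157 (60.9 to 576) and CST2, a salivary cystatin, at 268 (73.9 to 2218). None of these genes overlapped between the groups, which was a condition of their choice. In NR1H4 and CMKLR2 the libraries of YAP-TFE3 were themselves uneven, replicate 3 being the lowest, with CMKLR2 at 32.5, 33.9 and 7.86 CPM.

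**Figure D1:**
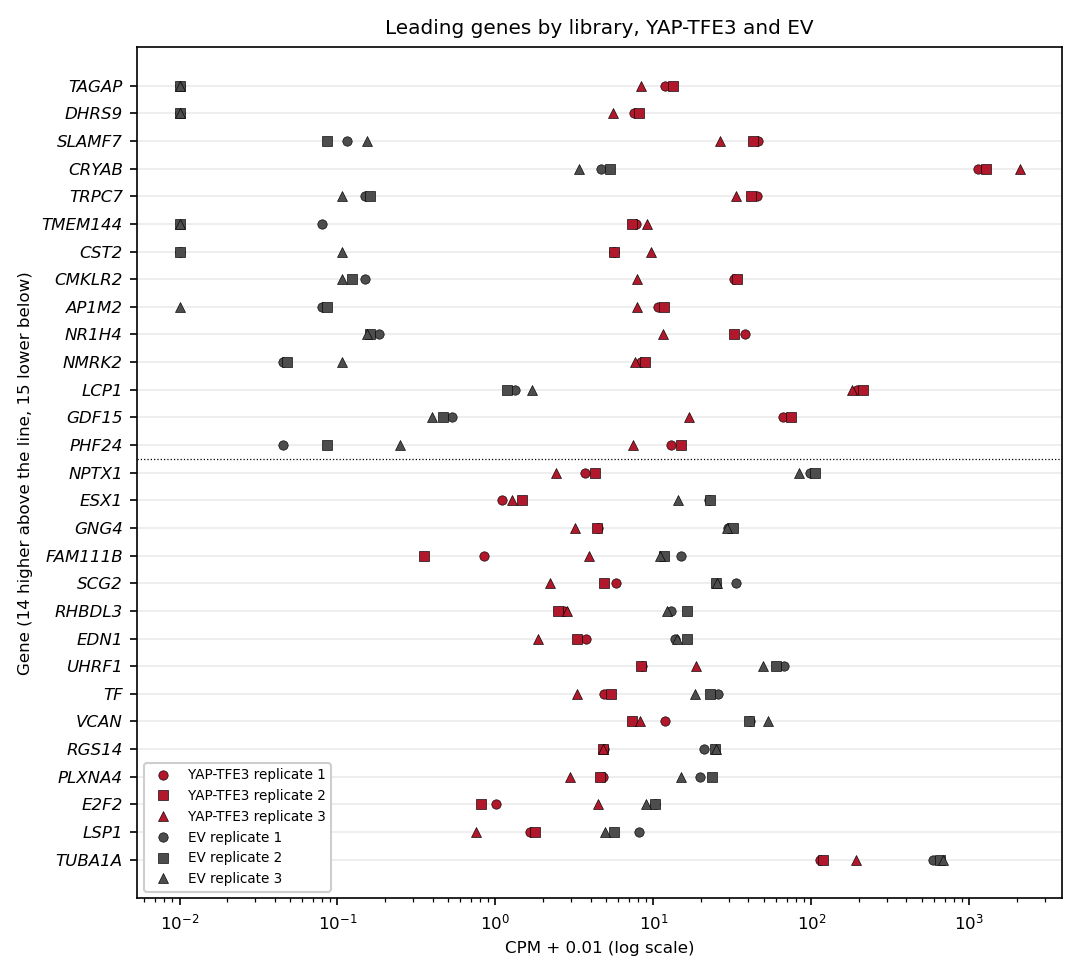
CPM plus 0.01, on a log axis, of 14 of the 15 higher and all 15 lower protein coding genes with the largest fold changes, with each library drawn as a point (red, YAP-TFE3; grey, EV; circle, square and triangle for replicates 1, 2 and 3). The groups do not overlap for any of the 29 genes, which is a condition of the choice, and replicate 3 of YAP-TFE3 lies apart from replicates 1 and 2 for GDF15 and FAM111B.

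The leading decreases were smaller. NPTX1, a secreted neuronal pentraxin, GNG4, a G protein gamma subunit, and SCG2, the granule protein secretogranin II, fell. EDN1, which encodes the vasoconstrictor endothelin-1, was at 13.6 to 16.3 CPM in EV and at a mean of 2.95 CPM in YAP-TFE3. VCAN, the matrix proteoglycan versican, fell by 2.28 ± 0.22 on the log2 scale (adjusted p = 6.0e-09), from 40.6, 40.2 and 52.8 CPM to 11.9, 7.28 and 8.23 CPM. TUBA1A, an alpha tubulin, was the most abundant gene of this group, with a mean of 142 CPM left in YAP-TFE3. UHRF1 and E2F2, which belong to the replication genes described below, were also among them, and E2F2 and FAM111B stood at −3.45 and −4.42 on the log2 scale without YAP-TFE3 replicate 3, against −2.22 and −2.86 with it.

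Promoter sequence is shown here for 5 genes that rose, to let the sequences that MiT and AP-1 factors recognise be seen in place. The 5 were chosen because their windows hold a match, so a match in each is not typical of genes that rose. Each window runs from 250 bases before to 50 bases after the RefSeq start on GRCh38.p14. Capitals mark matches, on either strand, to the extended E-box TCACGTGA, the M-box TCATGTGA or the AP-1 site TGANTCA, and a match is a run of letters and not a shown binding site. GPNMB, a lysosomal and melanosomal glycoprotein, lies at chr7:23246525-23246824 on the plus strand and holds an M-box on the minus strand 63 bases before the start and an AP-1 match 134 bases before it. IGF2R, the receptor that carries mannose 6-phosphate tagged enzymes to lysosomes, lies at chr6:159968832-159969131 on the plus strand and holds extended E-boxes 133, 75 and 29 bases before the start. KLF15, a metabolic transcription factor of adipocytes and liver, lies at chr3:126357359-126357658 on the minus strand and holds an extended E-box 47 bases before the start. OSGIN1, an oxidative stress response gene, lies at chr16:83952990-83953289 on the plus strand, and TMEM144 at chr4:158210236-158210535 on the plus strand.
GPNMB: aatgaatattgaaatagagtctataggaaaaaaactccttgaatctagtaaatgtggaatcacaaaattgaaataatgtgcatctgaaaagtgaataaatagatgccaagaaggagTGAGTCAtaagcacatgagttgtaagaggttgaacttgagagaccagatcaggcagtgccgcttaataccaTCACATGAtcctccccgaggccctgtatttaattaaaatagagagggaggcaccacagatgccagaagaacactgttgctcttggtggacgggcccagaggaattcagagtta
IGF2R: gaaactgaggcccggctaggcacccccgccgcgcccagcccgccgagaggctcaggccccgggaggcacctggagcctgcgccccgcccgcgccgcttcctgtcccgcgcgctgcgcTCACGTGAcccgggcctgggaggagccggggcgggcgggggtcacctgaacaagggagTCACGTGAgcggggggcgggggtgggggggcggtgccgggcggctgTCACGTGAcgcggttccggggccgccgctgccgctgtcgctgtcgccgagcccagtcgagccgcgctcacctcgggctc
KLF15: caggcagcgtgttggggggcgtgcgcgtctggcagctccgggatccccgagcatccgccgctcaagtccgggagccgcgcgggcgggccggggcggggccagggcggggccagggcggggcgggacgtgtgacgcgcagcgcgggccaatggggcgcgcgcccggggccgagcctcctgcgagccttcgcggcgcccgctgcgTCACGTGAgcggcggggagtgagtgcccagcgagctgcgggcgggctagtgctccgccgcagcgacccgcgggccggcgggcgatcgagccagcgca
OSGIN1: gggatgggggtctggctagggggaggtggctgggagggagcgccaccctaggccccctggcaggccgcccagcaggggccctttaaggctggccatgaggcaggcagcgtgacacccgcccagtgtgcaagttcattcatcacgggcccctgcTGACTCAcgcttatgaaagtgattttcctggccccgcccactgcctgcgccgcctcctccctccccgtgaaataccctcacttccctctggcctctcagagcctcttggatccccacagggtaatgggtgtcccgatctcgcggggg
TMEM144: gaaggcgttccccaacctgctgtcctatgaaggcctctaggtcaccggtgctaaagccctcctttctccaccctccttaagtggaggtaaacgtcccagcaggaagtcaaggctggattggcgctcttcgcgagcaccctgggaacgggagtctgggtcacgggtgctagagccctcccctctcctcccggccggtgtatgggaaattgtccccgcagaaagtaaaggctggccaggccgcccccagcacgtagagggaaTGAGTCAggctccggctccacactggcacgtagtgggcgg

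The genes shown above rose by different amounts. GPNMB was at 921, 990 and 1120 CPM in YAP-TFE3 and at 53.8, 57.7 and 68.2 CPM in EV, a log2 fold change of 4.08 ± 0.18 (adjusted p = 1.0e-14). IGF2R was at 753, 803 and 727 CPM against 202, 247 and 270 CPM (1.67 ± 0.11, adjusted p = 5.5e-12). KLF15 was at 24.8, 28 and 13.5 CPM against 1.92, 1.74 and 2.74 CPM (3.39 ± 0.23, adjusted p = 2.0e-11). The 3 YAP-TFE3 libraries were above the 3 EV libraries for each of these genes. TMEM144 had 0 counts in 2 of the EV libraries and stood at a ratio of 305 (84.2 to 2523).

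Over all genes, motif matches were more frequent in the promoters of higher than of lower genes for each of the 5 sequences searched. This turned for the extended E-box TCACGTGA when only genes changed at least 2-fold were counted, with 0.903% of higher and 1.11% of lower windows. RefSeq windows were matched by symbol for 13138 of the 17787 tested genes that had one, and the whole table held 27305 windows. The M-box TCATGTGA was found on either strand in 1.46% of the windows of higher genes, 0.467% of lower genes, 0.770% of genes not called and 1.01% of all windows. The AP-1 site TGANTCA was found in 6.60%, 3.77%, 4.83% and 7.76% of them. The 6-base E-box CACGTG, which is contained in the extended E-box, was found in 10.1%, 9.22%, 9.71% and 7.43%, and TCACGTGA itself in 2.03%, 1.25%, 1.75% and 1.04%. The TEAD core GGAATG was found in 12.96%, 9.88%, 11.1% and 14.0%. For TGANTCA and GGAATG the share among higher genes lay below that of all windows, but among higher genes changed at least 2-fold it lay above, at 9.17% and 15.01%. These differences were not tested. Of the 34 windows of V-ATPase and lysosomal hydrolase genes, 14, or 41.2%, held CACGTG. The share was 38.5% of 26 windows for ribosome biogenesis genes and 37.5% of 16 for HOX genes, of which 3 of 32 and 5 of 35 rose.

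**Figure D2:**
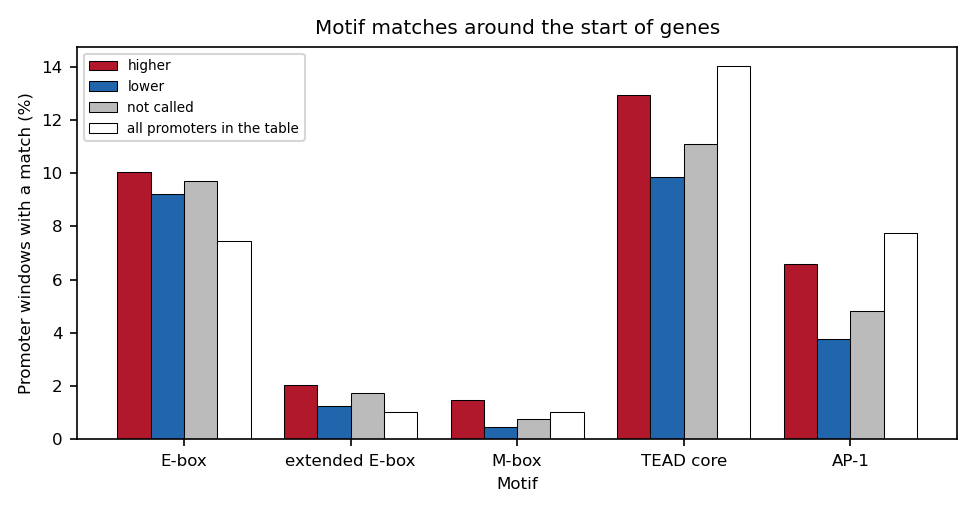
Share of promoter windows of 300 bases with at least 1 match to each of 5 motifs, for genes higher in YAP-TFE3 (red), lower (blue), not called (grey) and for all 27305 windows of the table (white); the bars start at 0. The share among higher genes exceeds that among lower genes for all 5 motifs as plotted, from 1.46% against 0.467% for the M-box to 10.1% against 9.22% for the E-box, but not for the extended E-box when only genes changed at least 2-fold are counted (0.903% against 1.11%).

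Amino acid and one-carbon genes rose, with the highest median of the 16 lists plotted by member. The genes known as targets of ATF4, the transcription factor of the integrated stress response, supply amino acids, charge the folate cycle and encode stress factors. Of 36 tested, 30 rose and none fell, with a median log2 fold change of 1.38. ASS1, which encodes argininosuccinate synthase of the arginine pathway, was at 51.4, 65.0 and 30.3 CPM in YAP-TFE3 and at 2.58, 2.42 and 5.34 CPM in EV (3.86 ± 0.32, adjusted p = 5.7e-10). CTH, the cysteine-forming cystathionine gamma-lyase, was at 128, 126 and 36.1 CPM against 7.82, 6.67 and 9.53 CPM (3.60 ± 0.30, adjusted p = 5.6e-10). The groups did not overlap for either gene.

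The stress factors of the same list include transcription factors and secreted proteins. DDIT3, which encodes CHOP, was at 164, 172 and 37.2 CPM in YAP-TFE3 and at 10.4, 10.6 and 16.1 CPM in EV (3.34 ± 0.35, adjusted p = 2.9e-08). TRIB3, an inhibitory pseudokinase, was at 655, 755 and 190 CPM against 98.6, 95.4 and 128 CPM (2.32 ± 0.28, adjusted p = 2.4e-07). In both genes all 3 YAP-TFE3 libraries were above EV, with replicate 3 by far the closest to it. STC2, a secreted stanniocalcin, rose by 3.45 ± 0.26, NUPR1, a nuclear stress factor, by 3.15 ± 0.28 and ATF3 by 2.67 ± 0.24 on the log2 scale, each with an adjusted p under 0.05. ATF4 mRNA itself was at 646, 695 and 531 CPM against 378, 371 and 466 CPM, a smaller rise of 0.62 ± 0.09 (adjusted p = 4.0e-06), and ATF5 did not pass the test (−0.13 ± 0.11, adjusted p = 0.34).

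Amino acid transporters rose with the synthesis genes. Among the 9 in the list, 8 rose, among them SLC7A11, the cystine transporter, with 173, 121 and 50.3 CPM in YAP-TFE3 and 14.9, 6.63 and 16.1 CPM in EV (3.20 ± 0.46, adjusted p = 3.5e-06). SLC3A2 and SLC7A5, which together form the LAT1 leucine transporter, rose by 1.81 ± 0.22 and 1.69 ± 0.23 on the log2 scale, and SLC38A2 did not pass (0.12 ± 0.11, adjusted p = 0.36), although it did without YAP-TFE3 replicate 3 (0.26, adjusted p = 0.033). The list median over the 36 genes, taken as the difference of log2 CPM from the EV mean, was 1.63, 1.78 and 0.67 in YAP-TFE3 replicates 1, 2 and 3. Without replicate 3, 32 of the 36 genes rose and 1 fell, with a median of 1.70.

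Secreted products that are known to follow the same stress pathway rose alongside. GDF15, a stress-induced cytokine, was at 65.9, 74.1 and 16.8 CPM against 0.524, 0.455 and 0.385 CPM in EV, and rose by 6.81 ± 0.50 on the log2 scale (adjusted p = 7.2e-11). INHBE, an activin beta chain of liver, was at 73.1, 85.4 and 8.63 CPM against 1.78, 1.14 and 2.89 CPM (4.88 ± 0.53, adjusted p = 5.9e-08). VEGFA, the vascular growth factor, was at 186, 189 and 52.7 CPM against 30.1, 23.8 and 29.7 CPM (2.36 ± 0.28, adjusted p = 2.4e-07). All 3 were lowest in YAP-TFE3 replicate 3 and were still above every EV library there.

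The endoplasmic reticulum and antioxidant programmes rose as well. Of 22 tested chaperone and unfolded protein response genes, 15 rose and 2 fell, with a median of 0.72. HSPA5, the lumenal chaperone BiP, was at 3051, 3227 and 2230 CPM against 1110, 1192 and 1167 CPM (1.29 ± 0.11, adjusted p = 5.7e-10), and EDEM1, a factor of glycoprotein degradation, was at 119, 124 and 132 CPM against 40.8, 36.6 and 37.9 CPM (1.70 ± 0.10, adjusted p = 7.9e-13). ERN1, the sensor IRE1, was uneven between libraries, at 88.0, 91.4 and 25.1 CPM against 11.7 to 15.2 CPM in EV. CRELD2, an ER disulfide isomerase, was among those that fell, by 0.70 ± 0.12.

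Of 26 antioxidant genes known as NRF2 targets, 19 rose and 2 fell, with a median of 0.96 and with 0.64 to 1.08 in the single libraries. OSGIN1 was at 142, 158 and 46.7 CPM against 11.6, 10.4 and 10.6 CPM (3.41 ± 0.28, adjusted p = 4.9e-10). AKR1C3, an aldo-keto reductase, was at 10.7, 11.8 and 9.20 CPM against 0.698, 0.834 and 1.40 CPM (3.47 ± 0.27, adjusted p = 1.9e-10), and reads of the near-identical AKR1C genes could have been shared among them. KEAP1, the adaptor that targets NRF2 for degradation, was among the genes that fell (−0.51 ± 0.09, adjusted p = 5.5e-05). SQSTM1, the autophagy receptor p62, rose by 1.49 ± 0.12 (adjusted p = 1.8e-10).

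Iron storage and haem genes moved in both directions, with 14 of 28 higher and 8 lower. FTL, the ferritin light chain, was at 5458, 6357 and 4481 CPM against 1655, 1789 and 2107 CPM (1.55 ± 0.12, adjusted p = 2.9e-10), and BLVRB, biliverdin reductase B, was at 268, 314 and 271 CPM against 24.6, 23.98 and 30.4 CPM (3.43 ± 0.13, adjusted p = 3.2e-16). The haem synthesis enzymes CPOX and PPOX fell by 0.60 ± 0.12 and 0.51 ± 0.10. Ferritin genes have processed copies elsewhere in the genome, and how such reads were counted is not given in the sources used here. Heat shock proteins rose in 11 of 26 and fell in none, led by CRYAB and by HSPB8, its small heat shock relative, with 109, 127 and 151 CPM against 17.98, 19.9 and 19.2 CPM (2.76 ± 0.12, adjusted p = 3.0e-15). Without YAP-TFE3 replicate 3 the heat shock list held 10 higher and 5 lower genes.

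**Figure D3:**
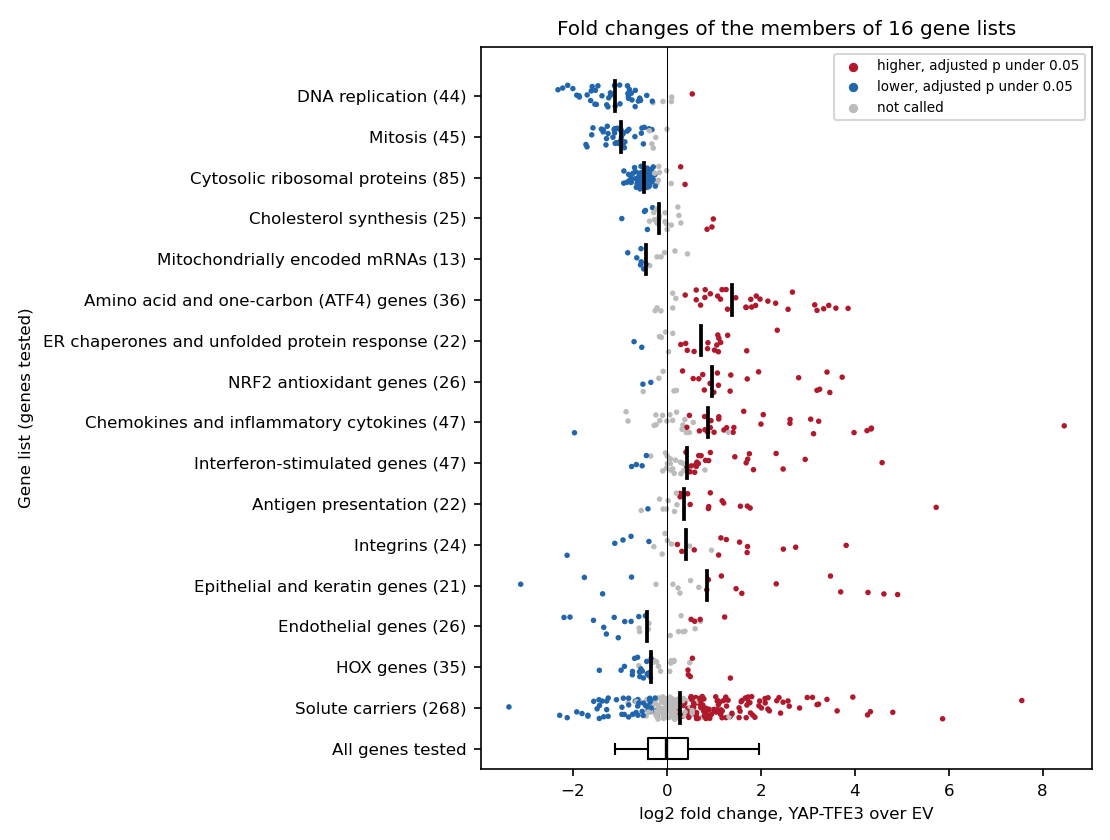
Log2 fold change of YAP-TFE3 over EV for each tested member of 16 gene lists (red, higher and blue, lower at an adjusted p under 0.05; grey, not called; black bar, list median), above a box of all 20296 genes (box, quartiles; line, median; whiskers, percentiles 5 and 95). Medians run from −1.11 for DNA replication to 1.38 for the amino acid and one-carbon genes, against −0.01 for all genes.

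Cell cycle genes fell below the level of confluent control cells. In bulk RNA, fewer cycling cells and less of these mRNAs in each cell cannot be told apart. The replication list holds the helicase subunits, loading factors, polymerases and nucleotide enzymes of S phase, and 39 of its 44 genes fell and 1 rose, with a median of −1.11. RRM2, the regulatory subunit of ribonucleotide reductase, was at 14.6, 15.9 and 51.0 CPM in YAP-TFE3 and at 121, 120 and 112 CPM in EV (−2.11 ± 0.28, adjusted p = 9.4e-07). UHRF1, which maintains DNA methylation behind the replication fork, was at 8.44, 8.30 and 18.6 CPM against 67.3, 60.1 and 49.5 CPM (−2.32 ± 0.23, adjusted p = 9.5e-09). MCM10, a helicase loading factor, was at 2.86, 2.38 and 11.7 CPM against 23.9, 23.9 and 20.5 CPM. In each of these genes replicate 3 was the highest of the YAP-TFE3 libraries and still below EV, and without it RRM2 stood at −2.95 and MCM10 at −3.12 on the log2 scale. The single gene of the list that rose was E2F7, an E2F repressor, at 40.9, 39.9 and 31.1 CPM against 25.02 to 26.5 CPM in EV (0.54 ± 0.13, adjusted p = 0.0016).

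Mitotic genes fell to a like extent and evenly across libraries. Of 45, 40 fell and none rose, with a median of −0.98 over the fitted fold changes and with −0.86, −1.08 and −1.04 in YAP-TFE3 replicates 1, 2 and 3. ESPL1, the protease separase, was at 21.5, 24.7 and 24.2 CPM against 77.1, 81.9 and 73.6 CPM (−1.72 ± 0.13, adjusted p = 1.9e-10). MYBL2, a transcription factor of late cell cycle genes, was at 49.5, 51.8 and 70.4 CPM against 188, 201 and 169 CPM (−1.70 ± 0.16, adjusted p = 3.8e-09). The replication list, in contrast, had medians of −1.47, −1.43 and −0.51 in the 3 libraries, and without replicate 3 it held 41 lower genes, 1 higher gene and a median of −1.43.

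Cyclins and inhibitors of cyclin-dependent kinases did not follow a single direction, with 5 of 20 higher and 7 lower. CCND1, the G1 cyclin D1, was at 251, 256 and 263 CPM against 133, 126 and 104 CPM and so rose (1.08 ± 0.12, adjusted p = 8.4e-08) while CCNE2, a cyclin E, fell (−1.05 ± 0.21, adjusted p = 0.00024). CDKN2B, the inhibitor p15, was at 139, 130 and 58.4 CPM against 40.4, 37.2 and 33.1 CPM (1.56 ± 0.21, adjusted p = 1.3e-06). CDKN2C, the inhibitor p18, fell (−1.18 ± 0.15, adjusted p = 8.4e-07).

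Apoptosis regulators of the BCL2 family were split evenly, with 6 of 19 higher and 6 lower. Among the death-promoting BH3-only genes, BCL2L11, which encodes BIM, was at 11.6, 12.3 and 14.0 CPM against 38.7, 35.96 and 39.0 CPM (−1.58 ± 0.10, adjusted p = 7.2e-12), and BMF fell by 1.16 ± 0.13. Among the anti-apoptotic genes, BCL2 was at 16.7, 17.5 and 13.3 CPM against 6.60, 6.97 and 4.38 CPM (1.39 ± 0.18, adjusted p = 7.2e-07), and BCL2A1, at a mean of 3.02 CPM in YAP-TFE3, rose by 4.77 ± 0.39 from a mean of 0.112 CPM.

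Cytosolic ribosomal protein genes fell by a small and even amount. Of 85, 75 fell and 2 rose, with a median of −0.48 and with −0.47, −0.46 and −0.50 in the 3 YAP-TFE3 libraries. RPL7A was at 1002, 1096 and 1295 CPM against 2046, 2161 and 2187 CPM (−0.91 ± 0.14, adjusted p = 7.0e-06). The 2 that rose were RPL39L (0.39 ± 0.10) and RPS27L (0.29 ± 0.10), both variants of a canonical ribosomal protein. The call of RPS27L was lost without EV replicate 3 (0.24, adjusted p = 0.074), YAP-TFE3 replicate 1 (0.27, adjusted p = 0.051) or YAP-TFE3 replicate 3 (0.24, adjusted p = 0.060), with total-count scaling (adjusted p = 0.071) and in the fit of the compared groups alone (adjusted p = 0.066). Ribosomal protein genes have many processed copies, and how reads that match several of them were counted is not given in the sources used here.

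Mitochondrially encoded mRNAs and cholesterol synthesis genes depended on YAP-TFE3 replicate 3. Of the 13 mitochondrially encoded mRNAs, 7 fell and none rose, with a median of −0.44, without replicate 3 the count was 10 lower with a median of −0.68, and without replicate 1 or replicate 2 it was 3 lower and 1 higher. MT-CO3, a cytochrome oxidase subunit, was at 2840, 2989 and 5036 CPM against 6229, 6763 and 6363 CPM (−0.83 ± 0.17, adjusted p = 0.00022). MT-ND6, the transcript of the light strand, had 417, 436 and 706 CPM against 371, 408 and 371 CPM and did not pass the test (0.44 ± 0.19, adjusted p = 0.055), although it did with a replicate block (0.45, adjusted p = 0.045), with DESeq2 (adjusted p = 0.046), with no filter beyond 1 count (adjusted p = 0.014), with the filter taken over all 24 libraries (adjusted p = 0.047) and without YAP-TFE3 replicate 1 (0.57, adjusted p = 0.020) or replicate 2 (0.55, adjusted p = 0.032). The share of all counts on the mitochondrial chromosome was 3.63%, 3.79% and 5.12% in YAP-TFE3 and 5.09% to 5.43% in EV, so that replicate 3 lay inside the EV range. The 75 nuclear genes of oxidative phosphorylation had 14 higher and 10 lower members and a median of −0.01, and 10 higher and 17 lower without YAP-TFE3 replicate 3. The number of lower members was 4 to 6 without YAP-TFE3 replicate 1 or 2 or EV replicate 2 or 3.

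Of 25 cholesterol synthesis genes 3 rose and 5 fell, and without replicate 3 the count was 3 higher and 19 lower with a median of −0.43. The list medians of the single libraries were −0.55, −0.41 and 0.36, so the YAP-TFE3 libraries lay on both sides of EV. MVK, mevalonate kinase, was at 13.7, 13.1 and 31.2 CPM against 36.1, 33.7 and 43.3 CPM and was below EV in all 3 (−0.96 ± 0.22, adjusted p = 0.00072). STARD4, a carrier that moves cholesterol between membranes, was among the genes that rose.

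**Figure D4:**
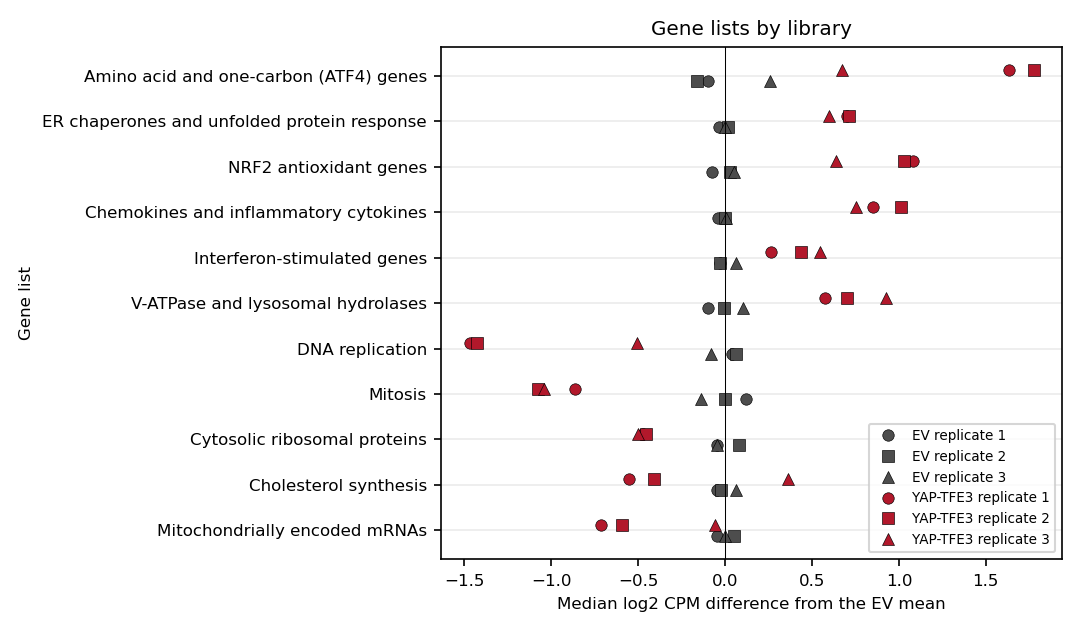
Median over each gene list of the log2 CPM difference from the EV mean, with each library drawn as a point (red, YAP-TFE3; grey, EV; circle, square and triangle for replicates 1, 2 and 3). YAP-TFE3 replicate 3 lies nearer to EV for amino acid genes (0.67 against 1.63 and 1.78) and replication genes (−0.51 against −1.47 and −1.43), and on the other side of EV for cholesterol synthesis (0.36).

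Carbon metabolism changed gene by gene. Glycolysis genes rose in 11 and fell in 5 of 28, or in 11 and 2 without YAP-TFE3 replicate 1, with SLC2A3, the glucose transporter GLUT3, at 238, 244 and 177 CPM against 44.5, 44.03 and 56.8 CPM (2.18 ± 0.19, adjusted p = 2.0e-09) and LDHA, lactate dehydrogenase A, at 557, 560 and 761 CPM against 1236, 1153 and 912 CPM (−0.81 ± 0.19, adjusted p = 0.00088). Of 23 genes of the hypoxia response 12 rose and 1 fell, and the 4 highest were LOX, STC2, VEGFA and VLDLR. LOX, the collagen cross-linking enzyme, was at 134, 129 and 94.5 CPM against 8.06, 6.55 and 6.40 CPM (4.08 ± 0.19, adjusted p = 1.9e-14). STC2, VEGFA and VLDLR are known to answer other stresses as well as low oxygen.

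Inflammatory genes rose. Chemokines, cytokines and NF-κB regulators recruit and instruct white blood cells, and 28 of 47 tested rose and 1 fell, with a median of 0.87. CCL11, the eosinophil chemokine eotaxin, had 0 counts in all EV libraries and a level at least 13.1-fold higher in YAP-TFE3, a call that DESeq2 did not make (adjusted p = 0.28). The interleukins IL6, IL33 and IL34 rose by 4.35 ± 0.46, 4.35 ± 0.43 and 4.26 ± 0.44 on the log2 scale, from means of 0.110, 0.162 and 0.147 CPM to 2.27, 3.31 and 2.87 CPM, so each stayed at a low level. ICAM1, the adhesion molecule that white blood cells bind, was abundant, at 628, 739 and 829 CPM against 92.0, 106 and 159 CPM (2.62 ± 0.17, adjusted p = 6.8e-12).

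The NF-κB subunits rose by smaller amounts. NFKB2 was at 28.2, 34.1 and 25.2 CPM against 13.5, 15.4 and 16.8 CPM (0.94 ± 0.13, adjusted p = 1.4e-06), RELB rose by 1.27 ± 0.25 and NFKB1 by 0.92 ± 0.08. RELA, NFKBIA and TNFAIP3 did not pass the test, with log2 fold changes of −0.09 ± 0.10, −0.23 ± 0.14 and 0.06 ± 0.19, the last changing sign with total-count scaling. Without YAP-TFE3 replicate 3 NFKBIA passed the test as lower (−0.47, adjusted p = 0.0029).

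Interferon-stimulated and antigen presentation genes rose in part. Of 47 interferon-stimulated genes 25 rose and 4 fell, with a median of 0.43, or 25 and 1 without YAP-TFE3 replicate 2. IFI27 was at 22.0, 31.9 and 72.5 CPM against 1.54, 1.63 and 2.16 CPM (4.58 ± 0.33, adjusted p = 5.7e-11), a value that was 3.94 without replicate 3, the highest library. IFI6, a mitochondrial and membrane protein of the same response, was at 86.4, 113 and 196 CPM against 22.7, 22.2 and 26.3 CPM (2.48 ± 0.24, adjusted p = 8.8e-09). HERC5, an ISG15 ligase, was at 11.7, 11.3 and 18.7 CPM against 21.7, 21.2 and 22.7 CPM and fell (−0.65 ± 0.16, adjusted p = 0.0013). Of 22 antigen presentation genes 13 rose and 1 fell. HLA-DMB, a chaperone of class II peptide loading, was at 14.9, 17.3 and 31.5 CPM against 0.244, 0.644 and 0.289 CPM (5.73 ± 0.39, adjusted p = 1.9e-11), or 6.33 without EV replicate 2, and its partner HLA-DMA rose by 1.57 ± 0.23. HLA genes are polymorphic and share sequence, and their counts are less certain for it.

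Complement and coagulation genes changed in a subset, with 12 of 24 higher and 4 lower. The proteases C1S and C1R, which start the classical pathway, were higher: C1S was at 210, 227 and 260 CPM against 4.71, 5.08 and 7.46 CPM (5.35 ± 0.27, adjusted p = 7.2e-14) and C1R rose by 1.24 ± 0.17. CD55, a complement inhibitor of the cell surface, rose by 2.57 ± 0.11 (adjusted p = 6.9e-15). A2M, a protease inhibitor of plasma, was at 108, 107 and 106 CPM against 248, 256 and 494 CPM (−1.64 ± 0.23, adjusted p = 2.1e-06).

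In the JAK-STAT pathway 28 of 59 genes rose and 10 fell, with a median of 0.34, and most of the receptors rose. The receptors of this pathway bind cytokines and growth hormone, the JAK kinases and STAT factors carry the signal, and SOCS proteins switch it off. Of 23 receptors 16 rose and 1 fell, with a median of 0.61. Of 11 kinases and STAT factors 3 rose and 3 fell, with a median of −0.02. IL6R, the interleukin 6 receptor, was at 59.1, 63.3 and 74.1 CPM against 7.68, 10.7 and 8.37 CPM (2.88 ± 0.11, adjusted p = 9.5e-16), and GHR, the growth hormone receptor, was at 3.69, 3.34 and 5.72 CPM against 0.419, 0.417 and 0.529 CPM (3.23 ± 0.35, adjusted p = 4.4e-08). Of 11 inhibitors 2 rose and 4 fell: SOCS3 and SOCS6 rose by 0.97 ± 0.29 and 0.52 ± 0.11, with SOCS3 missing the threshold without EV replicate 1 (0.80, adjusted p = 0.052) or 2 (0.74, adjusted p = 0.059), and SOCS2, CISH, PIAS3 and the phosphatase PTPN6 fell. SOCS2 was at 10.05, 10.003 and 7.57 CPM against 27.8, 27.0 and 21.9 CPM (−1.48 ± 0.11, adjusted p = 1.9e-10).

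Growth factor ligands rose in 15 and fell in 5 of 34. KITLG, the KIT ligand, was at 15.3, 10.5 and 8.15 CPM against 2.20, 2.24 and 1.97 CPM (2.40 ± 0.27, adjusted p = 1.0e-07), EGF rose by 2.21 ± 0.18, and ANGPT2, angiopoietin 2, fell by 2.11 ± 0.26. Of 28 receptor tyrosine kinases 13 rose and 6 fell. FGFR4 was at 20.2, 24.3 and 27.5 CPM against 5.38, 5.68 and 5.68 CPM (2.11 ± 0.15, adjusted p = 3.4e-11), DDR2, a collagen receptor, rose by 1.39 ± 0.14, and KDR and PDGFRA, the receptors of VEGF and PDGF, fell by 1.29 ± 0.22 and 1.13 ± 0.10. EGR1, an immediate early gene, was called higher but rested on replicate 3, at 11.3, 10.3 and 80.9 CPM against 6.74, 5.76 and 9.72 CPM (2.22 ± 0.53, adjusted p = 0.0012), and its call was lost without that library (0.55, adjusted p = 0.16).

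WNT antagonists, which dampen WNT signalling, were mostly lower. Of the 7 tested 5 fell and 1 rose, with a median of −0.92. DKK1 was at 3.27, 3.65 and 3.77 CPM against 17.4, 16.03 and 11.9 CPM (−2.08 ± 0.18, adjusted p = 8.3e-10), RNF43, a ligase that removes WNT receptors, was at 1.67, 1.98 and 3.14 CPM against 6.95, 6.06 and 7.02 CPM (−1.55 ± 0.22, adjusted p = 2.7e-06), and SFRP1 was at 191, 203 and 237 CPM against 427, 444 and 321 CPM (−0.92 ± 0.17, adjusted p = 0.00011). The groups did not overlap for any of the 3. DKK3, which differs from the other DKK proteins in its action, rose by 1.10 ± 0.13 (adjusted p = 1.0e-07).

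In the Notch pathway 10 of 24 genes rose and 5 fell. DLL3, an inhibitory ligand, was at 33.9, 38.1 and 48.7 CPM against 6.63, 6.10 and 5.72 CPM (2.71 ± 0.16, adjusted p = 2.2e-12). The target genes divided, HES4 rising by 2.99 ± 0.38 and HEY1 falling by 1.27 ± 0.15, and LFNG, a glycosyltransferase that modifies Notch, fell by 2.15 ± 0.18. Of 32 Hippo pathway genes 13 rose and 6 fell. AMOTL2 and LATS2, negative regulators of YAP, rose by 2.61 ± 0.11 and 1.78 ± 0.12, and WWTR1, which encodes TAZ, fell by 0.72 ± 0.08 (adjusted p = 1.0e-07), from 227, 202 and 183 CPM to 127, 124 and 121 CPM.

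Canonical YAP and TAZ target genes rose in 16 of 22 and fell in 2, with a median of 0.71 and with 13 to 17 higher as single libraries were left out. CCN2, the connective tissue growth factor, was at 198, 210 and 143 CPM against 26.9, 20.6 and 16.4 CPM (3.10 ± 0.20, adjusted p = 7.7e-12). MYOF, the membrane repair protein myoferlin, was at 736, 757 and 671 CPM against 175, 177 and 175 CPM (2.04 ± 0.12, adjusted p = 8.6e-13). The groups did not overlap for either gene. DOCK5, a Rac activator, and CCDC80, a matrix protein, were the pair that fell, by 0.63 ± 0.12 and 0.47 ± 0.12. The same list lay below YAP5SA: 17 of the 22 genes differed between the constructs and 4 of these were higher in YAP-TFE3, with a median of −0.96. ANKRD1, a muscle ankyrin repeat protein, had a log2 fold change of 2.91 ± 0.40 over EV and of −4.5 ± 0.31 over YAP5SA, whereas MYOF was higher than in YAP5SA by 0.42 ± 0.11.

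Lysosomal acidification and hydrolase genes, the known targets of the MiT family, rose in 40 of 54 and fell in 1, with a median of 0.77. Autophagy genes rose in 20 of 36 and fell in 3, with a smaller median of 0.26, and 15 rose and 4 fell with total-count scaling. ACP5, the tartrate-resistant acid phosphatase of osteoclasts, was at 105, 122 and 149 CPM against 22.0, 25.9 and 33.2 CPM (2.22 ± 0.18, adjusted p = 2.7e-10).

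Among transcription factors, the AP-1 family rose in 8 and fell in 4 of 15, and the small MAF proteins, which pair with NRF2 and other factors, were among its 3 largest increases with ATF3. MAFF was at 69.5, 78.04 and 41.2 CPM against 4.43, 4.70 and 3.90 CPM (3.85 ± 0.22, adjusted p = 8.3e-13), and MAFK rose by 2.01 ± 0.11. MAF, a large MAF factor, went the other way, falling by 1.31 ± 0.13. Nuclear receptors rose in 17 and fell in 10 of 38. Besides NR1H4, the oestrogen receptor genes ESR2 and ESR1 rose by 4.59 ± 0.30 and 2.81 ± 0.24 from means of 0.425 and 0.418 CPM to means of 10.3 and 2.90 CPM, and ESR2 stood at 5.18 without EV replicate 2. THRB, a thyroid hormone receptor, and NR1H3, the oxysterol receptor LXRα, fell by 0.78 ± 0.09 and 0.70 ± 0.15.

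Guidance receptors of vessels and axons were divided. Of 31 semaphorins, plexins and neuropilins 10 rose and 10 fell, with a median of −0.24. NRP1, a coreceptor of VEGF and semaphorins, was at 81.4, 72.2 and 53.9 CPM against 173, 169 and 155 CPM (−1.26 ± 0.11, adjusted p = 1.8e-09), and NRP2 fell by 1.12 ± 0.11. SEMA3B, a secreted ligand of the neuropilins, was at 22.4, 27.3 and 40.0 CPM against 9.95, 7.16 and 9.96 CPM (1.73 ± 0.19, adjusted p = 8.1e-08), and PLXNC1 rose by 1.55 ± 0.14. The neuropilins stood below the lowest EV library in every YAP-TFE3 library, and SEMA3B and PLXNC1 above the highest.

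The matrix and its receptors were altered gene by gene. LAMA1, the laminin alpha 1 chain of embryonic basement membranes, was at 291, 313 and 367 CPM against 3.53, 3.45 and 3.56 CPM (6.53 ± 0.15, adjusted p = 3.7e-20). FBLN5, an elastic fibre assembly protein, was at 64.2, 69.1 and 101 CPM against 0.733, 0.834 and 1.25 CPM (6.41 ± 0.23, adjusted p = 2.2e-16), while ELN, elastin, and FBLN1, another fibulin, fell by 1.66 ± 0.45 and 1.56 ± 0.15. LUM, the proteoglycan lumican, held 1 count in each EV library and stood at a ratio of 131 (44.6 to 637). Laminin and basement membrane genes rose in 13 and fell in 4 of 26, against 12 and 1 without YAP-TFE3 replicate 3 or without EV replicate 2.

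Collagens were divided, with 13 of 38 higher, 11 lower and a median of 0.00. COL12A1, a fibril-associated collagen, was at 270, 259 and 263 CPM against 41.1, 47.8 and 46.8 CPM (2.54 ± 0.12, adjusted p = 4.5e-14), and COL2A1, the cartilage collagen, was at 44.3, 51.0 and 92.5 CPM against 7.82, 10.2 and 11.1 CPM (2.69 ± 0.22, adjusted p = 4.7e-10). COL8A1 and COL1A1 fell by 1.94 ± 0.18 and 1.20 ± 0.35. Matrix proteases and their inhibitors rose in 23 and fell in 13 of 49.

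Integrins, which bind the matrix, rose in 12 and fell in 5 of 24. ITGB3, the beta subunit of the vitronectin receptor, was at 94.7, 103 and 95.6 CPM against 6.84, 7.84 and 6.01 CPM (3.82 ± 0.14, adjusted p = 5.3e-16). ITGAX and ITGB2, which pair on white blood cells, were low and rose by 1.71 ± 0.15 and 1.72 ± 0.31. ITGA10, a collagen receptor chain, was at 1.96, 2.23 and 2.12 CPM against 8.41, 10.04 and 9.09 CPM (−2.12 ± 0.17, adjusted p = 4.3e-10).

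Contractile and actin genes, the usual companions of YAP activity, had 10 of 30 higher and 7 lower, with a median of 0.08. CNN1, calponin of smooth muscle, was at 13.3, 16.1 and 18.7 CPM against 2.58, 2.20 and 1.64 CPM (2.89 ± 0.28, adjusted p = 7.8e-09), and FLNC, a muscle filamin, was at 1076, 1258 and 769 CPM against 286, 309 and 330 CPM (1.75 ± 0.12, adjusted p = 4.1e-11). TAGLN, transgelin, moved the other way, at 6.61, 7.87 and 9.38 CPM against 21.8, 18.6 and 16.8 CPM (−1.26 ± 0.22, adjusted p = 3.7e-05). VIM, the mesenchymal intermediate filament, fell by 0.79 ± 0.14 and ACTB by 0.58 ± 0.15.

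Lineage genes moved in both directions within each list. Melanocyte and MITF genes rose in 9 and fell in 5 of 16, a split in which PMEL, OCA2 and SLC45A2, of the pigment granule, rose by 2.91 ± 0.30, 2.81 ± 0.31 and 3.62 ± 0.25, while the pigment enzymes TYRP1 and DCT fell by 1.25 ± 0.11 and 0.88 ± 0.23. TYR and SOX10, which define melanocytes, held 0 counts in all 6 libraries. Of 26 adipocyte genes 12 rose and 4 fell, and ADIPOQ, the adiponectin gene, held 0 counts in all 6 libraries. In a shorter set of 8 adipocyte markers 5 were tested, 4 rose and 0 fell. Their summed level was 300 to 365 CPM in YAP-TFE3 and 148 to 222 CPM in EV. Most of it came from LPL (0.86 ± 0.15) and PPARG (0.88 ± 0.14), while FABP4 rose from 0 counts in EV to a mean of 0.62 CPM. PLIN1 did not pass the test (0.07 ± 0.34, adjusted p = 0.88), and LEP and CIDEC held at most 3 counts in any library. The largest fall among the 26 adipocyte genes was −1.48. PLIN4, a lipid droplet coat protein, was at 5.26, 5.98 and 6.83 CPM against 0.873, 0.871 and 0.866 CPM (2.79 ± 0.25, adjusted p = 2.6e-09).

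Epithelial genes rose in 11 and fell in 4 of 21. CLDN1, a tight junction claudin, was at 99.4, 99.9 and 33.6 CPM against 2.69, 2.42 and 2.60 CPM (4.91 ± 0.31, adjusted p = 5.9e-12), and ESRP1, an epithelial splicing regulator, was at 12.8, 11.6 and 5.06 CPM against 0.524, 0.227 and 0.433 CPM (4.62 ± 0.45, adjusted p = 9.5e-09). CLDN4, another claudin, was at 2.28, 2.66 and 3.46 CPM against 6.32, 7.62 and 7.89 CPM and fell (−1.37 ± 0.16, adjusted p = 1.6e-07). Of 26 endothelial genes 4 rose and 11 fell, with a median of −0.43 that turned to 0.07 among members with a mean of 50 or more counts, and SOX17, an endothelial transcription factor, was at 0.417, 0.619 and 0.314 CPM against 2.30, 1.89 and 1.40 CPM (−2.06 ± 0.28, adjusted p = 1.9e-06).

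Membrane transport genes differed by class. Of 268 solute carriers 116 rose and 49 fell, with a median of 0.28. SLC6A12, the betaine transporter, was at 29.0, 36.5 and 68.7 CPM against 2.30, 2.54 and 2.07 CPM (4.27 ± 0.26, adjusted p = 3.8e-12). Of 36 ABC transporters 10 rose and 3 fell, with a median of 0.03, and of 62 potassium channels 22 rose and 15 fell, with a median of 0.11. Of 72 other ion channels 34 rose and 12 fell, with a median of 0.38. P2RX7, an ATP-gated channel, was at 166, 188 and 112 CPM against 19.4, 17.997 and 18.5 CPM (3.06 ± 0.14, adjusted p = 1.5e-14), and CACNA1B, a neuronal calcium channel subunit, rose by 2.48 ± 0.17.

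HOX genes of regional identity leaned downward, and zinc finger genes rose less often than protein coding genes as a whole. Of 35 HOX genes 17 fell and 5 rose, with a median of −0.35, and HOXA5 was at 9.95, 10.1 and 14.0 CPM against 21.0, 23.9 and 22.1 CPM (−0.98 ± 0.11, adjusted p = 1.0e-07). Genes of a HOX cluster overlap or neighbour each other, so their counts are not independent. Of 482 genes with a ZNF name 134 fell and 52 rose, with a median of −0.11. Their lower share of 27.8% lay near the 25.4% of all protein coding genes, while their higher share was 10.8% against 29.2%. The list medians were −0.0002, −0.15 and −0.17 in YAP-TFE3 replicates 1, 2 and 3. Those of the EV libraries were −0.04 to 0.07, so YAP-TFE3 replicate 1 lay inside the EV range.

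The fusion was also tested directly against YAP5SA and against TFE3, each with its own 3 confluent libraries. Of the 20296 genes, 10560 differed between YAP-TFE3 and YAP5SA, or 52.0%, and 9874 differed between YAP-TFE3 and TFE3, or 48.6%. All 3 comparisons share the YAP-TFE3 libraries. Among the 14806 protein coding genes, 8787 differed from YAP5SA, 4644 of them being higher in YAP-TFE3, and 8016 differed from TFE3. Of the 36 amino acid genes, 19 differed from YAP5SA, 4 of them being higher in YAP-TFE3, whereas 31 differed from TFE3. The share that differed from YAP5SA was thus no larger than over all protein coding genes.

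The interferon, antigen presentation, ribosomal and contractile lists differed from YAP5SA in most of their members, at shares above that of all protein coding genes. Of 47 interferon-stimulated genes 43 differed from YAP5SA and 39 of these were higher in YAP-TFE3, and of 22 antigen presentation genes 18 differed and 17 were higher. Of 85 ribosomal protein genes 79 differed from YAP5SA and none of them was higher in YAP-TFE3. Relative to EV, the mean of their library medians was −0.48 ± 0.02 (SD) in YAP-TFE3 and 0.26 ± 0.12 in YAP5SA. It was also low in TAZ-CAMTA1 (−0.34 ± 0.20) and subconfluent CAMTA1 cells (−0.33 ± 0.04). Subconfluent empty vector cells stood at −0.18 ± 0.08, TFE3 at −0.06 ± 0.17 and TAZ4SA at 0.42 ± 0.12. OSGIN1 was higher in YAP-TFE3 than in YAP5SA by 3.44 and than in TFE3 by 3.08 on the log2 scale, ITGB3 by 3.75 and 3.98, and LAMA1 by 4.79 and 6.16, each with an adjusted p under 0.05. Contractile genes were lower than in YAP5SA: 28 of 30 differed and 5 of these were higher in YAP-TFE3. For YAP-TFE3 against YAP5SA, the log2 fold change of TAGLN was −4.95 and that of KRT80, an epithelial keratin, −4.54.

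List medians placed the YAP-TFE3 libraries beside all 7 other groups, each as the mean log2 CPM difference from EV (SD, n = 3). CAMTA1 cells were subconfluent like the second empty vector group, so for both of these construct and cell density cannot be told apart against YAP-TFE3. Replication genes were at −1.14 ± 0.54 in YAP-TFE3, 0.03 ± 0.10 in YAP5SA, −0.17 ± 0.22 in TFE3 and 0.61 ± 0.02 in subconfluent empty vector cells. Mitotic genes were at −1.0 ± 0.12, 0.34 ± 0.09, −0.19 ± 0.29 and 0.82 ± 0.05 in the same order. NRF2 target genes were at 0.92 ± 0.24 in YAP-TFE3 and at means of 0.00 to 0.19 in every other group. Amino acid genes were at 1.36 ± 0.60 in YAP-TFE3, 1.68 ± 0.13 in YAP5SA and 1.71 ± 0.11 in the activated TAZ form TAZ4SA, and at −0.12 ± 0.04 in TFE3, so that this list was high in 3 groups and its spread in YAP-TFE3 covered the other 2 means. WNT antagonists were at −0.92 ± 0.11 in YAP-TFE3 and 0.32 ± 0.29 in YAP5SA, and JAK-STAT receptors at 0.70 ± 0.10 and 0.20 ± 0.03. These medians are descriptions and were not tested.

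**Figure D5:**
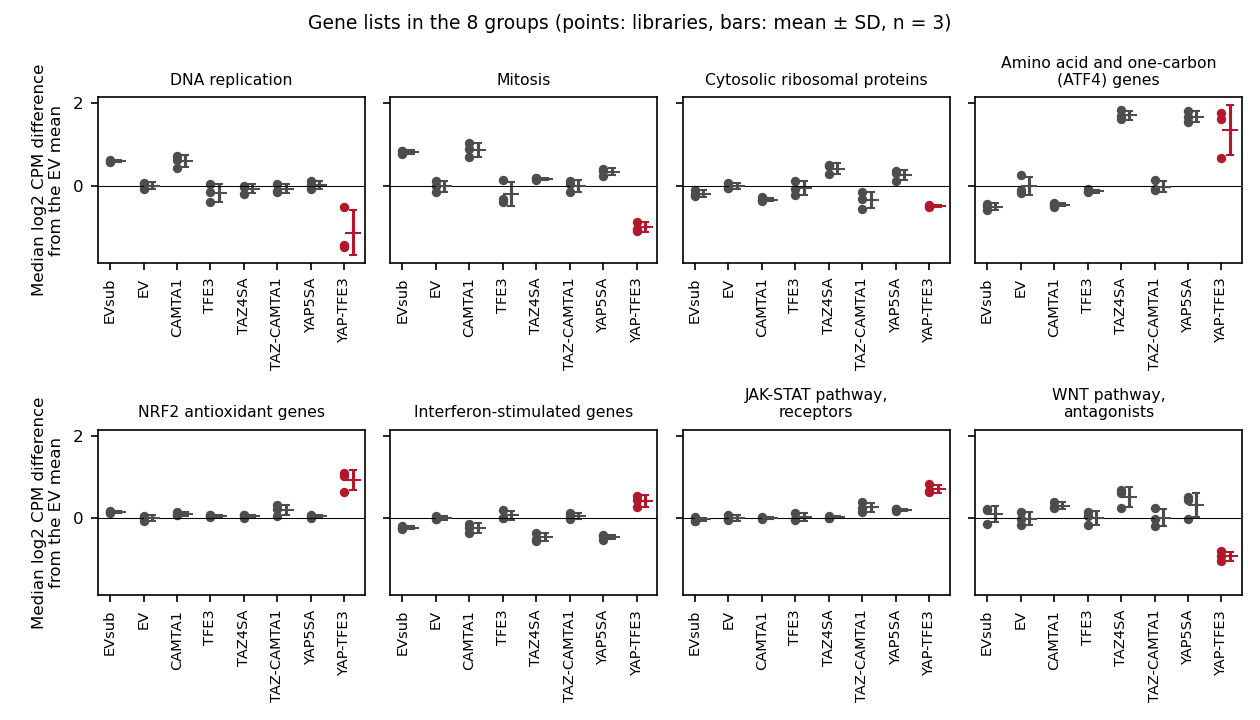
Median log2 CPM difference from the EV mean for 8 gene lists in the 8 groups of the series (points, single libraries; bar, mean ± SD of 3 libraries; red, YAP-TFE3). YAP-TFE3 lies below all other groups for replication and mitosis (means of −1.14 and −1.0) and WNT antagonists (−0.92) and above them for NRF2 genes (0.92), while its amino acid genes lie in the range of TAZ4SA and YAP5SA. CAMTA1 and EVsub cells were subconfluent and all other groups confluent.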

How the data were processed

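RNA-seq was measured in 24 SW872 libraries (8 groups, 3 libraries each), which the study describes as biological triplicates. Polyadenylated RNA was prepared with a stranded TruSeq kit and sequenced as paired ends, and the authors aligned the reads to hg38 with Hisat2. The deposited files hold raw counts per gene for each sample, with no normalization, and the authors used another quantification for their own tests. The counting tool, its strand setting and its handling of reads with several matches are not given in the sources used here, so reads of overlapping, antisense and near-identical genes may be shared.

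Gene symbols were taken from GENCODE v44 by Ensembl identifier. Genes averaging 5 or more counts across the YAP-TFE3 and EV files were fitted with edgeR 4.0.16 (R 4.3.3), using a quasi-likelihood F test with TMM factors and 1 mean per group over all 24 libraries. P values were adjusted by Benjamini-Hochberg over all 20296 genes, and a gene was called at an adjusted p under 0.05. The SE is the log2 fold change over the square root of F. CPM values use TMM library sizes. Medians by library use log2 CPM with a prior count of 2. On simulated counts for YAP-TFE3 against EV (19574 genes, 200 changed), 67.0% of genes changed by 1 and 94.9% of those changed by 2 on the log2 scale were recovered, and 1.94% of calls were false. The simulation changed far fewer genes than were called in the data, in both directions alike and with no library set apart. It therefore does not give the error rate of the calls reported here. A ratio to EV is given with a 95% counting interval where EV held 1 to 3 counts in a library, and a lower bound where it held 0. Promoter windows were read from RefSeq on GRCh38.p14.

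Named genes were TFE3, YAP1 and WWTR1, the 15 higher and 15 lower protein coding genes with the largest called fold changes (a mean of at least 100 counts, groups not overlapping), up to 4 called members in each direction of a list with at least 1 CPM, and members of lists or roles of up to 15 genes. Some cell type markers are named as well. The genes shown, the lists and their members were chosen with earlier results of these data known. Alternatives were DESeq2 1.42.0, other scalings and filters, a replicate block, a test against a log2 change of 1, thinned counts and each library left out. Results for a few genes that these rules would name are not reported here.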

Additional observations from a re-analysis of the deposited data

How the results depend on the processing

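The count of 9950 genes called between YAP-TFE3 and EV ranged from 8008 to 10112 over DESeq2, other scalings and filters, the fit of the compared groups alone and thinned counts, and from 8662 to 10274 with each library left out in turn. No gene called both here and under an alternative changed sign. Total-count scaling gave 45.4% of calls as higher, against 52.7%. The test against a log2 change of 1 asks for a larger difference by its construction, and it left 1564 genes, 1285 higher and 279 lower, with 1797 against YAP5SA and 1489 against TFE3. The libraries shared replicate numbers and not a stated batch, and the correlation of their deviations was 0.216, 0.026 and 0.105. Each YAP-TFE3 library correlated best with the EV library of its number, but EV replicate 2 correlated best with YAP-TFE3 replicate 3. With a replicate block 9989 genes were called against EV, 10603 against YAP5SA and 9947 against TFE3. Of 178 named genes put through the alternatives, 123 kept their call under every one that tested them. The median of nuclear OXPHOS genes turned positive with a filter over 24 libraries (0.0079) and without EV replicate 2 or YAP-TFE3 replicate 1 or 2 (range over libraries left out −0.107 to 0.0313), that of cholesterol genes without YAP-TFE3 replicate 1 or 2 (range −0.43 to 0.0316), and that of endothelial genes under the stricter minimum of 50 counts (0.067). That of nuclear receptors turned negative under the minimum of 50 counts (−0.018) and with thinned counts (−0.0021). The median of ABC transporters turned negative with total-count scaling (−0.039), and that of immune cell genes turned positive under the minimum of 50 counts, which left 2 genes (0.78), and without YAP-TFE3 replicate 1 (range −0.28 to 0.043). TNFAIP3 changed sign with total-count scaling (−0.0012). The cause was not tested. Of 35 motif shares recomputed before the start only or among genes changed at least 2-fold, 21 moved beyond their 95% interval. Depth limits low genes: a count of 0 allows up to 3 counts per library.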
